A study of Mus musculus with 4 samples.

Results

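The genes described here are Myc, its relatives and partners, and genes of ribosome biogenesis, 36 genes in all among the 37981 gene loci of the deposited RNA-Seq tables. They were chosen by symbol, as 6 genes of the Myc family and network and 30 genes whose products make or modify ribosomal RNA or assemble ribosomal subunits. All 36 had a row of their own in both tables. The cells were inner medullary collecting duct (IMCD) cells, epithelial cells lining the terminal part of the collecting duct, which came from C57B/l mice with a floxed Tgfbr2 gene and were immortalized with psv40. Tgfbr2 encodes the type II TGF-β receptor (TβRII). TβRII-/- cells had received an adenovirus carrying Cre, whereas the TβRII fl/fl cells, the controls, had not. Whether the controls received a virus without Cre was not stated. Effects of receptor loss and of Cre itself, or of the virus, therefore cannot be told apart. Each population was sequenced after 4 days of serum depletion (serum-starved) and in serum-replete medium, with 1 library for each of the 4 conditions. No difference below has a replicate check, no test was run, and all values describe these libraries.

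Myc is a transcription factor that binds DNA as a dimer with Max, at E-boxes with the letters CACGTG. It is best known for driving cell growth through genes of nucleotide, protein and ribosome synthesis. Mxd proteins compete for Max and repress the same sites. Ribosome biogenesis starts in the nucleolus, where RNA polymerase I makes the precursor of ribosomal RNA, small nucleolar ribonucleoproteins (snoRNPs) modify it, and assembly factors fold and cleave it into the small and large subunits. It is among the most costly activities of a growing cell and is generally reduced when growth factors are withdrawn. TGF-β is known to repress Myc in many epithelial cells.

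Expression was given as FPKM, a count of sequenced fragments corrected for transcript length and library size. Within a medium, 1 was added to each FPKM and the value of TβRII-/- cells was divided by that of TβRII fl/fl cells and put on the log2 scale. All fold values are on this scale, on which changes of low genes come out too small. The media may have been scaled separately, so levels set side by side across media also carry any difference in scaling. A gene entered the comparison where 1 or both libraries of the medium reached 1 FPKM, and it is called where the ratio reached 2-fold. Fewer cells of a kind and less RNA per cell cannot be told apart in bulk RNA. Tgfbr2 itself was 73.7 FPKM in TβRII-/- against 143 FPKM in TβRII fl/fl controls after serum starvation, and 57.0 FPKM in TβRII-/- against 163 FPKM in TβRII fl/fl controls in serum-replete medium. Of 17 markers of collecting duct epithelium, between 6 and 9 reached 1 FPKM in a library. The water channel Aqp2 was listed at 0 in all 4, whereas the transcription factor Tfcp2l1 lay between 64.7 FPKM and 97.8 FPKM. Their summed level was 196 FPKM without and 240 FPKM with serum in TβRII-/- libraries, against 349 FPKM without and 459 FPKM with serum in TβRII fl/fl libraries. The keratin Krt8 had the widest gap, at 0.133 FPKM and 0.229 FPKM in TβRII-/- cells against 142 FPKM and 251 FPKM in the controls. With serum the gap of Krt8 was wider than that of the sum. Krt18 went the other way, at 36.9 FPKM and 89.1 FPKM in TβRII-/- cells against 22.1 FPKM and 25.1 FPKM in the controls. Of the 10 markers compared in each medium, 4 had a log2 ratio above 0 without and 3 with serum (52.1% and 47.9% of all genes). Of 6 fibroblast and 5 endothelial markers, only Col1a1, at 2.12 FPKM in serum-replete TβRII fl/fl cells, reached 1 FPKM in any library. The highest of 5 leukocyte markers in each library was Cd68, which lay between 3.18 FPKM and 11.8 FPKM. Ptprc reached 1.34 FPKM in the serum-starved TβRII fl/fl library only, and Itgam, Adgre1 and Cd3e stayed below 1 FPKM in every library. The part of these markers in the results below was not tested.

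The promoters of the members were searched for the E-box that Myc and Max bind. RefSeq promoter sequences on GRCm38.p6, from 250 bases before to 50 bases after the annotated start, were at hand for 30 of the 36 genes. Myc, Fbl, Rrp12, Rrs1, Bop1 and Npm1 had no entry. CACGTG, which reads the same on both strands, occurred in 7 of the 30 genes (23.3%), against 8.09% of 27025 genes in the table and 11.9% of 8764 genes with at least 1 FPKM in any library. These were 5 of 25 ribosome biogenesis genes (20%) and 2 of 5 Myc network genes. Some genes have several promoters. Counted by promoter, 7 of 39 (17.9%) held CACGTG, against 7.15% of all promoters and 9.92% of those of the expressed genes. With the related letters CACGCG added, searched on both strands and each gene counted once, 15 of 30 genes (50.0%) had a match, against 17.2% of all genes and 30.0% of the expressed genes. A match describes the letters and does not show binding. The stretch around each CACGTG is shown so that its place in the promoter can be read, with up to 12 bases on either side, 5′ to 3′ on the strand of the gene and the E-box in capitals.
Mxd4: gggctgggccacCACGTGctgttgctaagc
Nop2: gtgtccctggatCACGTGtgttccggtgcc
Max: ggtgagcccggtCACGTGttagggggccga
Pes1: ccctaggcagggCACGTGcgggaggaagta
Wdr43: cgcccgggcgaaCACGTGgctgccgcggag
Tsr1: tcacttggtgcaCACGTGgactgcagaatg
Utp20: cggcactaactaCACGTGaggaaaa
The first base of the E-box lay 219 bases before the start in Mxd4 and 60 before it in Nop2, and in Max the E-box spanned the start, beginning 3 bases before it. In the other four it began at base 3 of the transcript in Pes1, base 18 in Wdr43, base 25 in Tsr1 and base 38 in Utp20. For Nop2 and Mxd4, whose E-boxes lie upstream, the 250 bases before the start are given in full, at chr6:125131633-125131882 on the plus strand and at chr5:34187711-34187960 on the minus strand.
Nop2: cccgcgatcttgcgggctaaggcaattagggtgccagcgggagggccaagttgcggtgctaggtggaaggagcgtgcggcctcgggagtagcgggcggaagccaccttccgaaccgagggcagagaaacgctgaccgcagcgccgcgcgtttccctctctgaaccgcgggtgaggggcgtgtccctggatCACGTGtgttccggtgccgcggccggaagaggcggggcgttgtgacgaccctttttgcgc
Mxd4: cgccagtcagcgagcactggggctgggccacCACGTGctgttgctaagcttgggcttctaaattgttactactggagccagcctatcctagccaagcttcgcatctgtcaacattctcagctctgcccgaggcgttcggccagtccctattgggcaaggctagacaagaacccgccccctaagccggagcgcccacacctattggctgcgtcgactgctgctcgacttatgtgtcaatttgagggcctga

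Myc was lower in TβRII-/- cells in both media. It was 46.5 FPKM in TβRII-/- against 95.5 FPKM in TβRII fl/fl controls after serum starvation, a 2.03-fold lower value with a log2 ratio of −1.02. With serum it was 42.0 FPKM in TβRII-/- against 71.8 FPKM in TβRII fl/fl controls, a log2 ratio of −0.76 that stayed short of 2-fold. The 2 TβRII-/- values lay close together, and both were under both TβRII fl/fl values. The Myc locus runs on chromosome 15 from 61985391 to 61990374 in mm10, and Myc was the most abundant of the 3 Myc family genes in every library.
Mycn, a relative used mainly in embryonic and neural tissue, was a minor transcript. It was 2.68 FPKM in TβRII-/- against 5.45 FPKM in TβRII fl/fl controls after serum starvation, a log2 ratio of −0.81. With serum it was 2.63 FPKM in TβRII-/- against 1.83 FPKM in TβRII fl/fl controls, a log2 ratio of 0.36, so that its direction differed between the media. Mycl did not reach 1 FPKM in any library and was not compared. Its values were 0.0310 FPKM without and 0.0691 FPKM with serum in TβRII-/- cells, against 0.0886 FPKM without and 0.425 FPKM with serum in the controls, which corresponds to roughly 3.2 to 44.1 reads.

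Max, the obligate partner of Myc, differed little between the populations. After serum starvation Max was 45.3 FPKM in TβRII-/- against 43.6 FPKM in TβRII fl/fl controls, and with serum it was 31.6 FPKM in TβRII-/- against 32.0 FPKM in TβRII fl/fl controls. The log2 ratios were 0.05 and −0.02.
The Myc antagonist Mxd4, whose promoter holds an E-box, was the member with the lowest ratio. It was 7.41 FPKM in TβRII-/- against 26.2 FPKM in TβRII fl/fl controls in serum-replete medium, a 3.23-fold lower value with a log2 ratio of −1.69. After serum starvation it was 37.9 FPKM in TβRII-/- against 31.2 FPKM in TβRII fl/fl controls, a log2 ratio of 0.27. The serum-replete TβRII-/- library thus stood apart from the other three. Mxd1, another antagonist, was lower in TβRII-/- cells in both media without reaching 2-fold. Its values were 2.05 FPKM in TβRII-/- against 3.11 FPKM in TβRII fl/fl controls after serum starvation, and 1.01 FPKM in TβRII-/- against 2.04 FPKM in TβRII fl/fl controls with serum, with log2 ratios of −0.43 and −0.60. Among 5 Myc network members that were compared, 0 were called higher in either medium (8.02% of all genes without and 7% with serum), and 1 was called lower in each (6.64% of all genes without and 11.1% with serum), Myc after serum starvation and Mxd4 with serum.

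**Figure D1:**
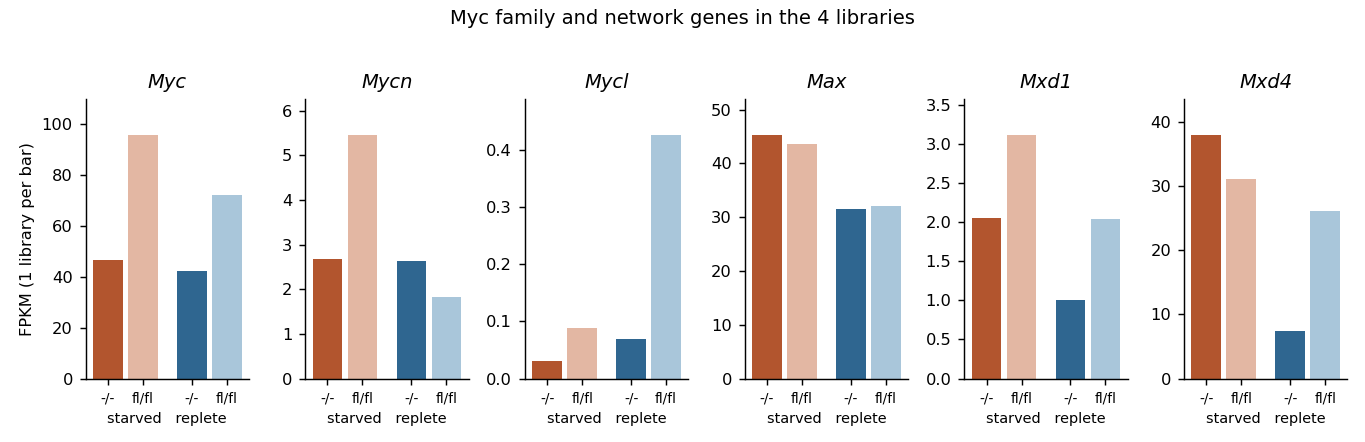
FPKM (vertical axis, a separate scale for each gene, starting at 0) of the 6 Myc family and network genes in the 4 libraries, TβRII-/- left of TβRII fl/fl within each medium, 1 library per bar. Myc is lower in TβRII-/- cells in both media (46.5 against 95.5 FPKM and 42.0 against 71.8 FPKM), and Mxd4 is low only in the serum-replete TβRII-/- library (7.41 FPKM).

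Of 11 further genes of the network that were compared, 0 were called in serum-starved medium (8.02% of all genes were called higher and 6.64% lower). In serum-replete medium 0 were called higher (7% of all genes) and 1, Mxi1, was called lower (11.1%). Mxi1, another Myc antagonist, was 3.92 FPKM in TβRII-/- against 10.4 FPKM in TβRII fl/fl controls with serum, a log2 ratio of −1.21, and 11.7 FPKM in TβRII-/- against 14.2 FPKM in TβRII fl/fl controls without. Mxd3, which is expressed in dividing cells, went the other way. It was 44.5 FPKM in TβRII-/- against 24.1 FPKM in TβRII fl/fl controls with serum, and 25.8 FPKM in TβRII-/- against 19.1 FPKM in TβRII fl/fl controls without. Trrap, a cofactor through which Myc recruits histone acetyltransferases, was 22.3 FPKM in TβRII-/- against 13.3 FPKM in TβRII fl/fl controls after serum starvation, and Mlx, a partner of Mxd proteins, was 36.6 FPKM in TβRII-/- against 23.8 FPKM in TβRII fl/fl controls.

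The 30 ribosome biogenesis genes lay on opposite sides of no difference in the 2 media. In serum-starved medium 24 of 30 had a log2 ratio below 0 and 6 above it (52.1% of 12687 genes had a ratio above 0), with a median of −0.30 against 0.028 over all genes. Scaled to equal FPKM sums, 27 of 30 were below 0, as were 54.5% of all genes. In serum-replete medium 27 of 30 were above 0 and 3 below it (47.9% of 12635 genes were above 0), with a median of 0.53 against −0.029 over all genes. Most single differences were small. At 2-fold, 0 of 30 were called higher (8.02% of all genes) and 1 was called lower (6.64%) after serum starvation, whereas 4 were called higher (7%) and 0 lower (11.1%) with serum. At 1.5-fold, 0 were higher (16.4%) and 6 lower (13.7%) after serum starvation, and 11 were higher (15.1%) and 0 lower (20.8%) with serum. The 2-fold shares are thus near those of all genes or rest on few genes, and what sets these genes beside the rest is mainly their common direction.

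Taken gene by gene, 22 of the 30 (73.3%) were lower in TβRII-/- cells without serum and higher in TβRII-/- cells with serum, as were 1745 of 12162 genes compared in both media (14.3%). Of the remaining 8, 5 were higher in both media (Nop58, Nop14, Utp20, Wdr12 and Mrto4), 2 were lower in both (Polr1b and Ubtf), and Rrp1b alone was higher without serum and lower with it. Scaled to equal FPKM sums, Nop14 (−0.04) and Wdr12 (−0.05) lay below 0 without serum and 24 of 30 had opposite directions, against 18.1% of all genes, 3 were higher in both media, and Rrp1b (−0.07) joined the genes lower in both. The serum-starved ratio was below the serum-replete ratio in 29 of 30, against 41.2% of all genes, with a median difference of −0.83 (serum-starved minus serum-replete) against 0.10 over all genes. At 1.5-fold in each medium, 0 of the 30 and 78 of the 12162 genes (0.64%) were lower without serum and higher with it. With 1 library per condition, this difference between media was not tested, and the same populations stand behind both.

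**Figure D2:**
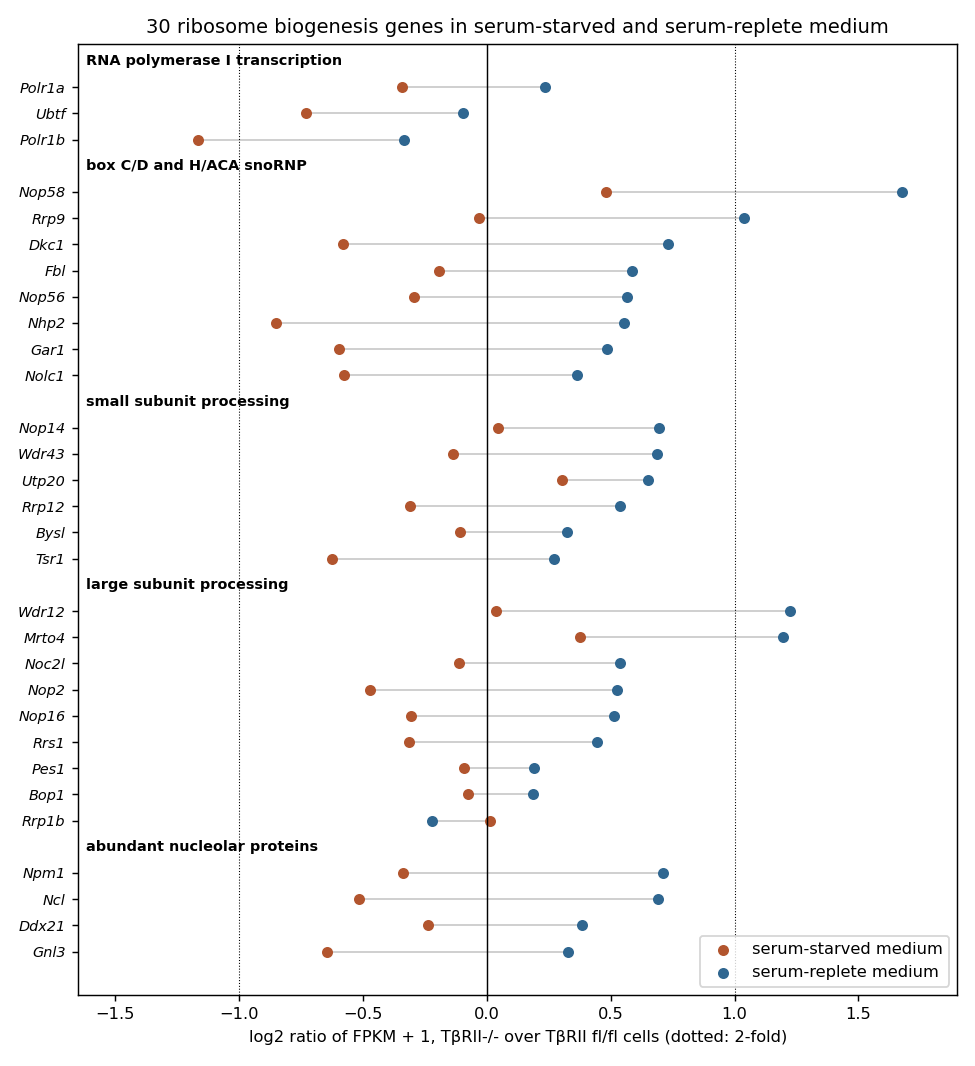
Log2 ratio of FPKM + 1 in TβRII-/- over TβRII fl/fl cells (horizontal axis) for the 30 ribosome biogenesis genes, grouped by role, with 1 point per medium and dotted lines at 2-fold. In 29 of 30 genes the serum-starved point lies left of the serum-replete point, and the exception is Rrp1b.

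Among the genes of RNA polymerase I transcription, none was called higher. Polr1b, the second-largest subunit of the polymerase, was the only one of the 30 called lower in either medium. It was 8.32 FPKM in TβRII-/- against 19.9 FPKM in TβRII fl/fl controls after serum starvation, a 2.24-fold lower value with a log2 ratio of −1.17. With serum it was 13.6 FPKM in TβRII-/- against 17.4 FPKM in TβRII fl/fl controls, a log2 ratio of −0.33. Ubtf, which opens ribosomal DNA for transcription, showed the same order. It was 30.2 FPKM in TβRII-/- against 50.8 FPKM in TβRII fl/fl controls without serum, a log2 ratio of −0.73, and 49.2 FPKM in TβRII-/- against 52.6 FPKM in TβRII fl/fl controls with serum, a log2 ratio of −0.09. Polr1a, the largest subunit, was 8.96 FPKM in TβRII-/- against 11.6 FPKM in TβRII fl/fl controls without serum, and 13.8 FPKM in TβRII-/- against 11.6 FPKM in TβRII fl/fl controls with it. The serum-starved TβRII-/- library held the lowest value of all 3 genes.

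All 8 snoRNP genes were higher in TβRII-/- cells with serum, and 7 of 8 were lower without it. Box C/D snoRNPs methylate ribosomal RNA, and their core proteins include Fbl, the methyltransferase, with Nop56 and Nop58. Nop58 had the largest serum-replete ratio of all 36 genes. It was 156 FPKM in TβRII-/- against 48.0 FPKM in TβRII fl/fl controls with serum, a 3.20-fold higher value with a log2 ratio of 1.68. Without serum Nop58 was 63.7 FPKM in TβRII-/- against 45.3 FPKM in TβRII fl/fl controls, a log2 ratio of 0.48, the only positive one in this group. Nop56, its partner in the particle, was 168 FPKM in TβRII-/- against 113 FPKM in TβRII fl/fl controls with serum, and 65.5 FPKM in TβRII-/- against 80.6 FPKM in TβRII fl/fl controls without. Fbl was 60.6 FPKM in TβRII-/- against 40.1 FPKM in TβRII fl/fl controls with serum, and 30.5 FPKM in TβRII-/- against 35.0 FPKM in TβRII fl/fl controls without. The log2 ratios of Nop56 and Fbl were 0.56 and 0.59 with serum and −0.29 and −0.19 without, so these partners lay well under Nop58.
Rrp9, a component of the snoRNP that guides the early cleavages of the precursor, was called higher with serum. It was 44.6 FPKM in TβRII-/- against 21.2 FPKM in TβRII fl/fl controls there, a log2 ratio of 1.04, and 18.1 FPKM in TβRII-/- against 18.5 FPKM in TβRII fl/fl controls after serum starvation, a log2 ratio of −0.03. Its serum-replete TβRII-/- value was apart from the other three, which spanned 18.1 FPKM to 21.2 FPKM.

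H/ACA snoRNPs convert uridine to pseudouridine, and their core includes the synthase Dkc1 with Gar1 and Nhp2. These 3 genes had some of the widest gaps between the media. Nhp2 was 38.7 FPKM in TβRII-/- against 70.6 FPKM in TβRII fl/fl controls without serum, a log2 ratio of −0.85, and 111 FPKM in TβRII-/- against 75.4 FPKM in TβRII fl/fl controls with serum, a log2 ratio of 0.55. Its difference of −1.41 between the media was the largest of the 30. Dkc1 was 17.0 FPKM in TβRII-/- against 25.9 FPKM in TβRII fl/fl controls without serum, and 52.7 FPKM in TβRII-/- against 31.3 FPKM in TβRII fl/fl controls with it, a difference of −1.31. Gar1 was 34.5 FPKM in TβRII-/- against 52.8 FPKM in TβRII fl/fl controls without serum, and 68.6 FPKM in TβRII-/- against 48.7 FPKM in TβRII fl/fl controls with it, a difference of −1.08. In each of the 3 the TβRII-/- libraries held both the lowest and the highest value, with the TβRII fl/fl libraries between them. Nolc1, a chaperone of snoRNPs, had the same order at 21.2 FPKM in TβRII-/- against 32.1 FPKM in TβRII fl/fl controls without serum, and 46.2 FPKM in TβRII-/- against 35.7 FPKM in TβRII fl/fl controls with it.

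For small subunit processing, all 6 genes were higher in TβRII-/- cells with serum, with log2 ratios of 0.27 to 0.69, and none was called. Nop14 and Wdr43, both of the large particle that forms on the nascent precursor, had the highest mean level over the 4 libraries in this group. Wdr43 was 30.5 FPKM in TβRII-/- against 33.6 FPKM in TβRII fl/fl controls without serum, and 46.7 FPKM in TβRII-/- against 28.6 FPKM in TβRII fl/fl controls with serum, where its log2 ratio was 0.69. Nop14 was 32.4 FPKM in TβRII-/- against 31.3 FPKM in TβRII fl/fl controls without serum, and 37.9 FPKM in TβRII-/- against 23.1 FPKM in TβRII fl/fl controls with serum, a log2 ratio of 0.69 as well. For Nop14 the serum-replete TβRII fl/fl library was the one apart. Utp20, of the same particle, was 8.94 FPKM in TβRII-/- against 7.07 FPKM in TβRII fl/fl controls without serum, and 11.9 FPKM in TβRII-/- against 7.24 FPKM in TβRII fl/fl controls with it. Rrp12, which takes part in maturation and export of the small subunit, was 7.98 FPKM in TβRII-/- against 10.1 FPKM in TβRII fl/fl controls without serum, and 13.9 FPKM in TβRII-/- against 9.27 FPKM in TβRII fl/fl controls with it.
Tsr1 and Bysl act in later assembly of the small subunit. Tsr1 was 16.1 FPKM in TβRII-/- against 25.3 FPKM in TβRII fl/fl controls without serum, the lowest ratio of the group at −0.62, and 28.8 FPKM in TβRII-/- against 23.7 FPKM in TβRII fl/fl controls with serum. Bysl was 15.1 FPKM in TβRII-/- against 16.3 FPKM in TβRII fl/fl controls without serum, and 23.0 FPKM in TβRII-/- against 18.2 FPKM in TβRII fl/fl controls with it. Of the CACGTG genes in this group, Wdr43, Utp20 and Tsr1, the serum-replete log2 ratios were 0.69, 0.65 and 0.27, which spans the range of the group.

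Of 9 genes of large subunit processing, 8 were higher in TβRII-/- cells with serum, and Wdr12 and Mrto4 passed 2-fold. Pes1, Bop1 and Wdr12 form 1 complex, yet their ratios were unequal. Wdr12 was 23.5 FPKM in TβRII-/- against 9.49 FPKM in TβRII fl/fl controls with serum, a 2.33-fold higher value with a log2 ratio of 1.22, and 11.3 FPKM in TβRII-/- against 11.0 FPKM in TβRII fl/fl controls without. Pes1 was 56.9 FPKM in TβRII-/- against 49.7 FPKM in TβRII fl/fl controls with serum, and 48.1 FPKM in TβRII-/- against 51.4 FPKM in TβRII fl/fl controls without. Bop1 was 50.4 FPKM in TβRII-/- against 44.2 FPKM in TβRII fl/fl controls with serum, and 33.0 FPKM in TβRII-/- against 34.9 FPKM in TβRII fl/fl controls without. The serum-replete log2 ratios of Pes1 and Bop1 were thus 0.19 each. The Pes1 promoter holds the E-box shown above, and no CACGTG was found in the window of Wdr12. Mrto4, an assembly factor related to a stalk protein of the large subunit, was 70.9 FPKM in TβRII-/- against 30.4 FPKM in TβRII fl/fl controls with serum, a log2 ratio of 1.20, and 33.1 FPKM in TβRII-/- against 25.3 FPKM in TβRII fl/fl controls without, a log2 ratio of 0.38.
Nop2, a methyltransferase of the large subunit RNA whose upstream E-box is shown above, was 18.8 FPKM in TβRII-/- against 26.5 FPKM in TβRII fl/fl controls without serum, a log2 ratio of −0.47. With serum Nop2 was 37.0 FPKM in TβRII-/- against 25.4 FPKM in TβRII fl/fl controls, a log2 ratio of 0.53. The TβRII fl/fl values were nearly equal in the 2 media, and the TβRII-/- values lay on either side of them. Nop16, Rrs1 and Noc2l, further genes, of this group shared that arrangement. Nop16 was 17.3 FPKM in TβRII-/- against 21.6 FPKM in TβRII fl/fl controls without serum, and 31.6 FPKM in TβRII-/- against 21.8 FPKM in TβRII fl/fl controls with it. Rrs1 was 24.4 FPKM in TβRII-/- against 30.6 FPKM in TβRII fl/fl controls without serum, and 38.1 FPKM in TβRII-/- against 27.7 FPKM in TβRII fl/fl controls with it. Noc2l was 20.8 FPKM in TβRII-/- against 22.5 FPKM in TβRII fl/fl controls without serum, and 36.3 FPKM in TβRII-/- against 24.7 FPKM in TβRII fl/fl controls with it. Rrp1b, the exception among the 30, was 11.9 FPKM in TβRII-/- against 11.8 FPKM in TβRII fl/fl controls without serum, and 16.0 FPKM in TβRII-/- against 18.8 FPKM in TβRII fl/fl controls with it.

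Npm1 and Ncl, abundant proteins that organize the nucleolus and escort ribosomal RNA and proteins, were lower in TβRII-/- cells without serum and higher with it. Npm1, the most abundant of the 36 genes in every library, was 357 FPKM in TβRII-/- against 452 FPKM in TβRII fl/fl controls after serum starvation, a log2 ratio of −0.34. With serum Npm1 was 721 FPKM in TβRII-/- against 440 FPKM in TβRII fl/fl controls, a 1.64-fold higher value with a log2 ratio of 0.71. Ncl was 67.1 FPKM in TβRII-/- against 96.3 FPKM in TβRII fl/fl controls without serum, a log2 ratio of −0.51, and 153 FPKM in TβRII-/- against 94.1 FPKM in TβRII fl/fl controls with it, a log2 ratio of 0.69. For both genes the TβRII fl/fl libraries were close to each other. Gnl3, the nucleolar GTPase nucleostemin, was 29.7 FPKM in TβRII-/- against 47.1 FPKM in TβRII fl/fl controls without serum, and 51.3 FPKM in TβRII-/- against 40.7 FPKM in TβRII fl/fl controls with it. Ddx21, an RNA helicase that couples polymerase I transcription to processing, was 34.9 FPKM in TβRII-/- against 41.3 FPKM in TβRII fl/fl controls without serum, and 53.2 FPKM in TβRII-/- against 40.5 FPKM in TβRII fl/fl controls with it.

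**Figure D3:**
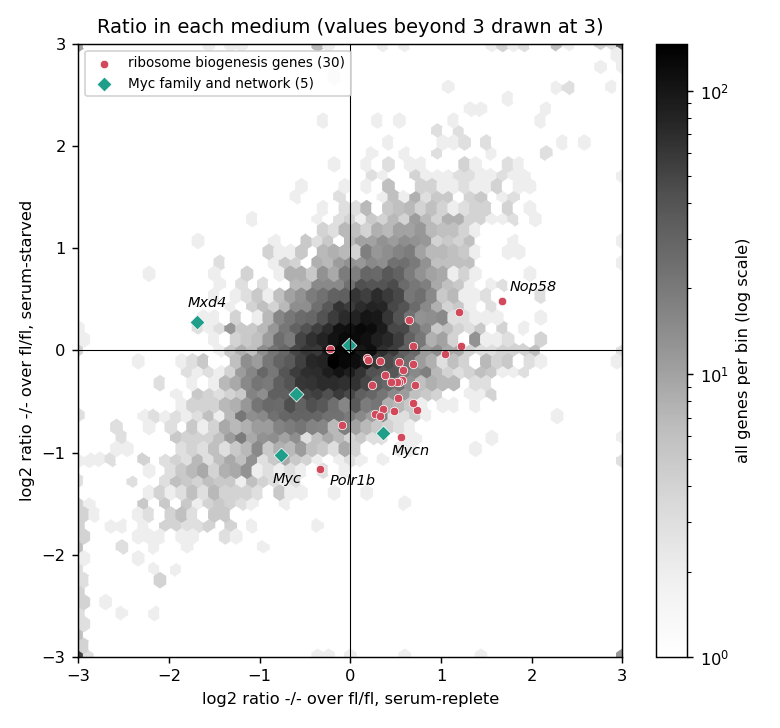
Log2 ratio of TβRII-/- over TβRII fl/fl cells in serum-replete medium (horizontal axis) and in serum-starved medium (vertical axis), with all genes compared in both media as gray bins, the 30 ribosome biogenesis genes as red circles and 5 Myc network genes as green diamonds. The red circles gather at the lower right, where 22 of 30 lie (24 with equal FPKM sums), against 14.3% of all genes, while Myc lies at the lower left and Mxd4 at the upper left.

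Seen from within each population, the 30 genes were lower in serum-starved than in serum-replete medium in TβRII-/- cells and level in TβRII fl/fl cells. The tables of the media may have been normalized separately, so this comparison also carries any difference in their scaling. In TβRII-/- cells all 30 genes were below 0 in the log2 ratio of serum-starved to serum-replete medium, with a median of −0.79 against 0.12 over 13160 genes, of which 5134 were below 0. In TβRII fl/fl cells 15 of 30 were below 0, with a median of −0.0053 against 0.015 over all genes. The largest drop in TβRII-/- cells was −1.58, in Dkc1, and the widest value in TβRII fl/fl cells was −0.63, in Rrp1b. Myc did not share this order, with 46.5 FPKM without against 42.0 FPKM with serum in TβRII-/- cells and 95.5 FPKM against 71.8 FPKM in those of TβRII fl/fl cells. Mxd4 had the widest contrast of the network genes, at 37.9 FPKM against 7.41 FPKM in TβRII-/- cells and 31.2 FPKM against 26.2 FPKM in TβRII fl/fl controls. These are the same 4 libraries as above, read along the other axis, and add no independent evidence.

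Other genes of ribosome biogenesis, 124 loci on 5 lists, were also mostly below 0 without serum and above 0 with it, except that the list of the RNA exosome had 6 of 11 above 0 without serum. After serum starvation 79 of 124 had a log2 ratio below 0 (47.9% of all genes), with a median of −0.15. There 0 were called higher (8.02% of all genes) and 2 lower (6.64%). The 2 include Gnl3l, listed at an exact 0 in TβRII-/- cells, which can be a failed estimate. With serum 104 of 124 were above 0 (47.9% of all genes), with a median of 0.33, and 2 were called higher (7%) and 0 lower (11.1%). In all, 63 of 124 (50.8%) were lower without serum and higher with it, against 14.3% of all genes. The difference between the media was below 0 in 112 of 124, against 41.2% of all genes. The lists differed in level. The median log2 ratios without and with serum were −0.16 and 0.066 for 12 other genes of RNA polymerase I, −0.06 and 0.48 for 41 genes of the small subunit, −0.24 and 0.27 for 50 genes of the large subunit, −0.19 and 0.22 for 10 snoRNP genes, and 0.035 and 0.59 for 11 genes of the RNA exosome.
Both genes called higher with serum encode subunits of the exosome, the nuclease complex that trims ribosomal RNA precursors. Exosc8 was 96.2 FPKM in TβRII-/- against 43.7 FPKM in TβRII fl/fl controls with serum, and 33.9 FPKM in TβRII-/- against 33.0 FPKM in TβRII fl/fl controls without. Exosc9 was 38.2 FPKM in TβRII-/- against 17.1 FPKM in TβRII fl/fl controls with serum, and 30.0 FPKM in TβRII-/- against 23.4 FPKM in TβRII fl/fl controls without. Of the 2 called lower without serum, Rcl1, which takes part in an early cleavage of the precursor, was 8.03 FPKM in TβRII-/- against 17.1 FPKM in TβRII fl/fl controls, and Gnl3l, a relative of Gnl3, was listed at 0 in TβRII-/- and at 21.7 FPKM in TβRII fl/fl controls. Pa2g4, a growth-regulated protein of pre-ribosomes, had a serum-replete log2 ratio of 0.96, at 176 FPKM in TβRII-/- against 90.3 FPKM in TβRII fl/fl controls. Tcof1, which supports polymerase I transcription and snoRNP function, was 10.1 FPKM in TβRII-/- against 15.4 FPKM in TβRII fl/fl controls without serum, and 22.8 FPKM in TβRII-/- against 16.6 FPKM in TβRII fl/fl controls with it. Other genes with large ratios on these lists were below 2-fold. With serum the log2 ratio was 0.97 for Dis3, a nuclease of the exosome, 0.96 for Dimt1, a methyltransferase of the small subunit RNA, 0.93 for Nmd3, the export adaptor of the large subunit, and 0.63 for the polymerase I subunit Polr1e. Without serum it was −0.71 for Taf1a, of the polymerase I initiation factor, −0.63 for Tsr2 and −0.60 for Exosc5. Cytosolic ribosomal protein genes, a set added after the values were seen, had a ratio below 0 in 68 of 75 genes without serum (median −0.36). With serum 73 of 75 were above 0 (median 0.35). Over all genes the shares were 47.9% below 0 without and 47.9% above 0 with serum.

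Genes known to be activated by Myc outside ribosome biogenesis split after serum starvation. Of 26 loci compared there, 11 were above 0 and 15 below it (52.1% of all genes were above 0). Of these, 2 were called higher (8.02% of all genes) and 1 lower (6.64%), which is near or under the shares of all genes. Both of the higher ones are glycolytic. Ldha was 786 FPKM in TβRII-/- against 236 FPKM in TβRII fl/fl controls, and Hk2 was 54.2 FPKM in TβRII-/- against 23.7 FPKM in TβRII fl/fl controls. With serum Ldha was 491 FPKM in TβRII-/- against 412 FPKM in TβRII fl/fl controls, while Hk2 was lower in TβRII-/- cells, at 19.3 FPKM against 31.5 FPKM in the controls. With serum 21 of 25 were above 0 (47.9% of all genes), with a median of 0.31, and 1 was called higher (7%) and 0 lower (11.1%). That gene was Srm, an enzyme of polyamine synthesis, at 95.8 FPKM in TβRII-/- against 46.2 FPKM in TβRII fl/fl controls with serum, and 35.5 FPKM in TβRII-/- against 43.3 FPKM in TβRII fl/fl controls without. Among 6 genes that Myc is known to repress, the cell cycle inhibitor Cdkn1a had log2 ratios of 1.84 without and 2.54 with serum. It was the only gene of the list called higher in either medium (8.02% and 7% of all genes). Called lower were 2 of 6 without serum (6.64% of all genes) and 1 of 5 with serum (11.1%). The list medians were −0.12 and −0.71.
Genes of mitosis moved beside the serum-replete result. All 10 on the list were called higher in TβRII-/- cells with serum (7% of all genes), with log2 ratios of 1.56 to 2.09. Without serum 0 of 10 were called (8.02% of all genes higher and 6.64% lower), and the median was −0.077. Ccnb1, a cyclin of mitotic entry, was 69.2 FPKM in TβRII-/- against 15.5 FPKM in TβRII fl/fl controls with serum, and 14.6 FPKM in TβRII-/- against 15.0 FPKM in TβRII fl/fl controls without. Their part in the ratios of the ribosome biogenesis genes was not tested.

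**Figure D4:**
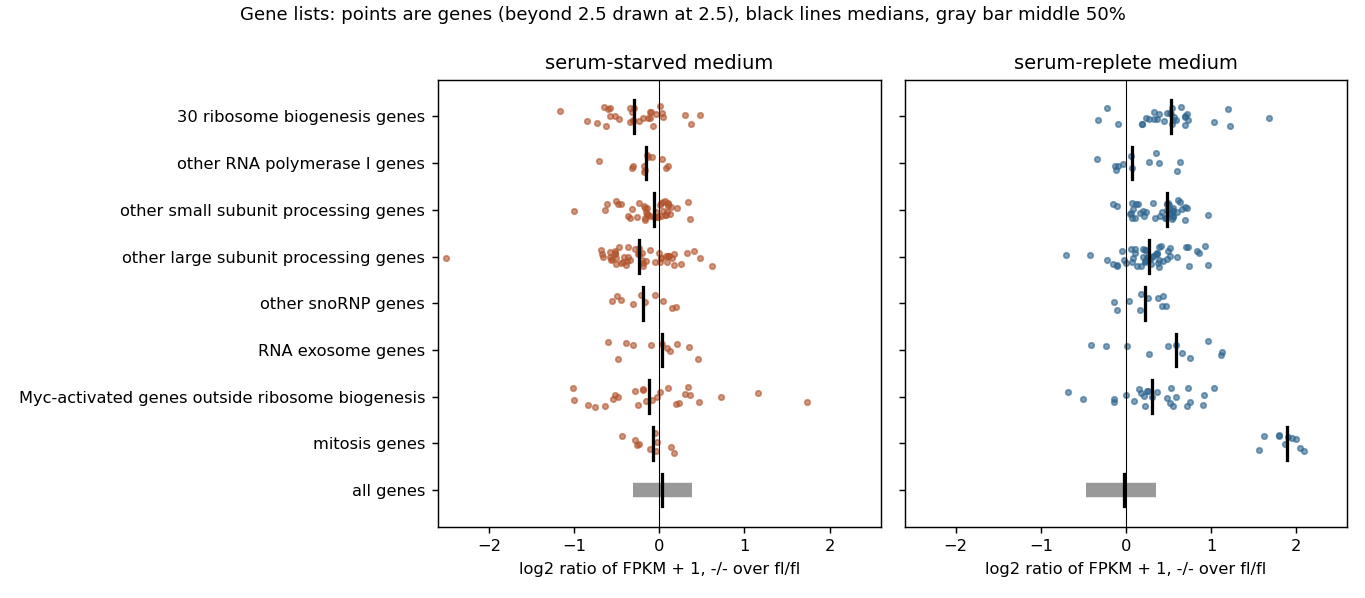
Log2 ratio of FPKM + 1 in TβRII-/- over TβRII fl/fl cells (horizontal axis) for each gene of 8 lists (rows), with serum-starved medium on the left and serum-replete medium on the right, the median as a black line and, for all genes, the middle 50% as a gray bar. The 30 ribosome biogenesis genes have a median of −0.30 without serum and 0.53 with serum, and the mitosis genes lie between 1.56 and 2.09 in serum-replete medium only.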

How the data were processed

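RNA-Seq of 4 libraries was analyzed, 1 for each population and medium, grouped by the sample titles. Reads were processed with TopHat2, Cufflinks and Cuffdiff on mm10, as listed in processing notes of the submitters. The release of the gene annotation and of each tool was not given in the sources used here. Labels give 30M reads of 50 bp. The deposited FPKM of the authors' Cuffdiff come in a separate table for each medium. These may have been scaled separately, so ratios between populations were formed within a medium. Levels across media also carry any difference in scaling. The tables also hold the authors' own fold changes, p-values and significance marks, which were not used. Samples are named in the table rows, and every column of values was matched to a title (0 unmatched).

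Log2 ratios used a pseudocount of 1 and genes for which 1 or both libraries of the medium reached 1 FPKM, and a gene was called at 2-fold. Each comparison within a medium set 1 library against 1 and has no test, and a fit of population with medium as a block, which leaves 1 residual degree of freedom, was not run. Alternatives were pseudocounts of 0.1 and 0.5, no filter, a filter of 5 FPKM, centering, equal FPKM sums, joined loci left out, the mean in place of the median, a 1.5-fold call and a wider motif. The split into 30 and 6 genes, the counts above and below 0 with their alternatives, and the comparison of media within a population were added after the values were seen. The members and lists were chosen with earlier results of these data known. Named in full were the Myc network, genes past 2-fold and the 2 most abundant of each role, and values of the remaining members were added. From each other list the rule took the 2 largest ratios per medium at 5 FPKM or more. Not all of these are printed. Of 214 list symbols, 213 were matched, in part through older names, and Exosc6 was not analysed here.

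Whole reads were not recovered. Low FPKM of genes with a single transcript over 1500 bp (GENCODE vM21) lay within 10% of a whole step in 69.5% to 75.7% of values under 2.5 steps. Assuming 200-bp fragments, the steps correspond to 32.3M reads without and 40.0M reads with serum in TβRII-/- cells, and 32.4M reads in each TβRII fl/fl library. These depths are relative and cover counting error only. Promoters were RefSeq sequences on GRCm38.p6, the assembly of mm10. Analyses used Python 3.11.15 with pandas 2.3.3 and NumPy 2.4.6. Only the ratios and the 2-fold calls were tried on simulated data, with planted changes larger than 2-fold. Direction counts, differences between media and promoter counts were not tried in this way.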

Additional observations from a re-analysis of the deposited data

Results flagged for a closer look

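The ribosome biogenesis genes differed in direction between the media. Their median log2 ratio of TβRII-/- to TβRII fl/fl cells was −0.30 without serum and 0.53 with serum. Each condition is 1 library, so this difference was not tested. No group had enough libraries to look for a sample far from the others.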

How the results depend on the processing

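With a call at 1.5-fold, 8 of the 35 members compared were lower after serum starvation (13.7% of all genes), in place of 2 at 2-fold (6.64%). At either call 0 were higher there (16.4% and 8.02%). With serum 11 were higher (15.1%) in place of 4 (7%), and 3 were lower (20.8%) in place of 1 (11.1%). Among the 30 ribosome biogenesis genes the 1.5-fold counts were 6 lower without serum in place of 1, and 11 higher with serum in place of 4. With CACGCG added to the motif, 15 genes in place of 7 had a match. Both settings admit more genes by construction. Equal FPKM sums left 3 of the 30 genes higher in both media in place of 5 and put 27 in place of 24 below 0 without serum, and the cause was not tested. The serum-starved ratio stayed below the serum-replete ratio in 29 of 30 under each pseudocount, filter and scaling. The medians of the 36 and of the 30 genes kept their sign under pseudocounts of 0.1 and 0.5, no filter, a filter of 5 FPKM, centering, equal FPKM sums and the mean, with those of the 30 genes between −0.39 and −0.28 without serum and between 0.52 and 0.56 with it. Leaving out joined loci removed none of the 36 genes. Equal FPKM sums moved the median of all genes by −0.083 in serum-starved medium. No library could be left out, because each condition has 1. No paired analysis was run, because each medium holds 1 library of each population and the labels give no replicate numbers. Depth limits Mycl, at roughly 3.2 to 44.1 reads, and the spread between cultures is unknown for every gene.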

Other observations

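Gnl3l, a relative of nucleostemin, was listed at 0 in the serum-starved TβRII-/- library, although it was 19.5 FPKM in the serum-replete TβRII-/- library and 21.7 FPKM without and 19.8 FPKM with serum in TβRII fl/fl libraries. An exact 0 in a table of estimates can be a failed estimate, so no fold is given.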
